A study of Mus musculus with 29 samples.

Results

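The 35 genes described here are the genes whose products copy DNA and carry a cell through mitosis, and their mRNA was followed in 3 mouse experiments on microglia and brain. They were taken as a list of gene symbols by function, not picked by their measured values, though with earlier results of these data known. Matched to Ensembl identifiers, all 35 were found among the 48709 identifiers of the count tables. By role they fall into 2 widely used proliferation markers (Mki67, Top2a), 4 genes of mitotic cyclins and their kinase (Cdk1, Ccna2, Ccnb1, Ccnb2), 6 mitotic kinases including those of the spindle checkpoint (Bub1, Bub1b, Aurka, Aurkb, Plk1, Melk), 10 genes of the spindle, kinetochore and cytokinesis (Kif11, Kif20a, Kif23, Cenpe, Cenpf, Tpx2, Prc1, Nusap1, Birc5, Aspm), 2 genes of the anaphase-promoting complex machinery (Cdc20, Ube2c), the transcription factor gene Foxm1, and 10 replication genes (Mcm2 to Mcm7, Pcna, Rrm1, Rrm2, Tyms).

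The study inhibited the microRNA miR-99b-5p with a locked nucleic acid oligonucleotide (anti-miR-99b) and compared it with a scrambled oligonucleotide (sc-control). In the first experiment both prefrontal cortices of male C57BL/6J mice aged 3 months were injected with either oligonucleotide in lipid nanoparticles and the tissue was taken 5 days later, with 3 libraries per arm, each from 1 mouse. In the second, microglia were shaken off mixed glial cultures of CD1 pups at postnatal day 1, grown with medium conditioned by L929 cells (a source of the microglial growth factor CSF-1) and treated for 2 days, with 4 libraries per arm. In the third, microglia treated in the same way were moved onto cortical neurons of CD1 embryos at embryonic day 17.5 and RNA of the whole co-culture was taken 48 h later, with 7 anti-miR-99b and 8 sc-control libraries. In the co-culture only the added microglia had met the oligonucleotide before the transfer. No source used here says that the culture libraries came from separate cultures, so their p-values measure the spread between these libraries, which may be technical.

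A dividing cell copies its DNA in S phase and separates the copies in mitosis. Replication origins are opened by the hexamer of the Mcm2 to Mcm7 proteins, Pcna clamps the polymerases to DNA, and ribonucleotide reductase (Rrm1, Rrm2) and thymidylate synthase (Tyms) make its building blocks. Cdk1 with cyclins A and B then drives the cell into mitosis, Plk1 and the Aurora kinases build the spindle and bipolar attachments, Bub1 and Bub1b hold the checkpoint until all chromosomes are attached, and Cdc20 with Ube2c starts anaphase. Transcription of these genes is tied to the cycle: E2F factors drive many replication genes at the entry into S phase, while the mitotic genes are switched on later by B-Myb and Foxm1 with the MuvB complex, which binds a short promoter element called the cell cycle genes homology region (CHR), often near CCAAT boxes bound by NF-Y. Neurons of the adult cortex do not divide, adult microglia divide slowly, and microglia of newborn pups held with CSF-1 are known to proliferate in culture. Aspm, besides its role at spindle poles, is a gene whose loss causes small brain size.

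The microRNA is shown first because complementarity between its seed and a transcript is the usual basis of targeting. Mature sequences are from RefSeq (GRCm38.p6), with the seed (bases 2 to 8) in capitals. miR-99b-5p shares its seed with miR-99a-5p and miR-100-5p.
mmu-miR-99b-5p, chr17:17830194-17830215, plus strand: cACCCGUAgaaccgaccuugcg
mmu-miR-99a-5p, chr16:77598940-77598961, plus strand: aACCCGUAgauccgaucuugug
mmu-miR-100-5p, chr9:41531437-41531458, plus strand: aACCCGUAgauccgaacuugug
All transcripts of the basic GENCODE annotation were searched. In their 3′ untranslated regions, 1 of the 35 genes held the 6-base match to seed bases 2 to 7, ACGGGT. That was Cdk1, at bases 2552 to 2557 of 3352 after the stop codon in its transcript with the longest such region. The site is printed with the match in capitals.
Cdk1 site: tttcctccACGGGTaggccaca
Of the 13236 genes tested in microglia whose region could be read, 7.51% held this match. The 7-base match to bases 2 to 8 was in 0 of the 35 genes, against 1.47% of those genes. In Cdk1 the 6-base match is followed by an A, which lies opposite base 1 of the microRNA. Matches followed by an A were not counted over all genes. Cdk1 itself had a log2 fold change of 0.0071 between anti-miR-99b and sc-control microglia (SE 0.035, edgeR adjusted p = 0.990).

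RefSeq promoter windows, from 250 bases before to 50 bases after the gene start, were on hand for 29 of the 35 genes and not for Aurkb, Ccna2, Kif20a, Tpx2, Mcm4 and Foxm1. They were searched on both strands for a CHR core (TTTGAA or TTCGAA), for CCAAT, and for an E2F core (TTCCCGC or TTGGCGC or TTCGCGC or TTGCCGC). The E2F core TTGGCGC shares 4 letters with CCAAT read on the other strand, so matches of both can overlap. A CHR core was found in 17 of 29 windows (58.6%), against 19.2% of all 32851 windows in the table. CCAAT was in 25 of 29 (86.2%) against 37.4%, and an E2F core in 9 of 29 (31.03%) against 9.57%. A CHR core and CCAAT occurred together in the same 17 windows (58.6%), against 7.52% of all windows. The motifs were spread unevenly over the roles: 15 of the 20 windows of markers, cyclins, kinases, spindle and anaphase genes held a CHR core but 2 of the 9 replication windows did, while an E2F core was in 6 of 9 replication windows and in 3 of the other 20. Mcm7, Mki67 and Cdk1 held all 3 motifs, as did 0.499% of all windows, and Nusap1, Melk, Tyms and Birc5 held none. These are matches of letters, with no test, and no binding was measured in these samples.

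To show these elements, 160 bases from 130 before to 29 after the start are printed for genes of different roles that the values below return to, 5′ to 3′ on the strand of the gene (RefSeq, GRCm38.p6). Capitals mark matches to the 3 motifs on either strand. In Mki67, Ccnb2, Aspm and Cdc20 the capitals include TTTGAA, with CCAAT or its complement ATTGG nearby in Ccnb2, Aspm and Cdc20. Mcm6 and Rrm1 show E2F cores with CCAAT boxes and no CHR core, and Cdk1 shows all 3 motifs.
Mki67, chr7:135716350-135716509, minus strand: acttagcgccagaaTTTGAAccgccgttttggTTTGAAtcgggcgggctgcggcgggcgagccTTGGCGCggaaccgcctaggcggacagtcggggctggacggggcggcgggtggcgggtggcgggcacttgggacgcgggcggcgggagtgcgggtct
Cdk1, chr10:69352883-69353042, minus strand: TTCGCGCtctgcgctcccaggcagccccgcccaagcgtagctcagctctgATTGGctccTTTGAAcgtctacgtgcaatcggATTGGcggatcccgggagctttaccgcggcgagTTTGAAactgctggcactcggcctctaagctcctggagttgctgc
Ccnb2, chr9:70421525-70421684, minus strand: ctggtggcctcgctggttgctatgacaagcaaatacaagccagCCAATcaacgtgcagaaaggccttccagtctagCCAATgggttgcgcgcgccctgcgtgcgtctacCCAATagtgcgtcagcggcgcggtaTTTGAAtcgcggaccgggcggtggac
Aspm, chr1:139454643-139454802, plus strand: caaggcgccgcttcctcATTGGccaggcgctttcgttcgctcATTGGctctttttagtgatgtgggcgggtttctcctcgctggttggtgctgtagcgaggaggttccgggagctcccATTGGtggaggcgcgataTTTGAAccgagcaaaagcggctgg
Cdc20, chr4:118437314-118437473, minus strand: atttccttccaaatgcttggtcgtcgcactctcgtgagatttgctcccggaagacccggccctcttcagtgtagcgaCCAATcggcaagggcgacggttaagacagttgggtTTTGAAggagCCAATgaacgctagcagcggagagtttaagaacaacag
Mcm6, chr1:128359676-128359835, minus strand: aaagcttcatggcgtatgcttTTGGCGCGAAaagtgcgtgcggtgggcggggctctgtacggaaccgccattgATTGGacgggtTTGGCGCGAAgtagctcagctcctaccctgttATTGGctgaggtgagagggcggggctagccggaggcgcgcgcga
Rrm1, chr7:102441565-102441724, plus strand: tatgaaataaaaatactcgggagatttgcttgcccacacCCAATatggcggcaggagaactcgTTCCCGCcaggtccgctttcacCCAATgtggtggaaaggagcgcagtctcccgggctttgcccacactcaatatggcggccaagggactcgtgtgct

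**Figure D1:**
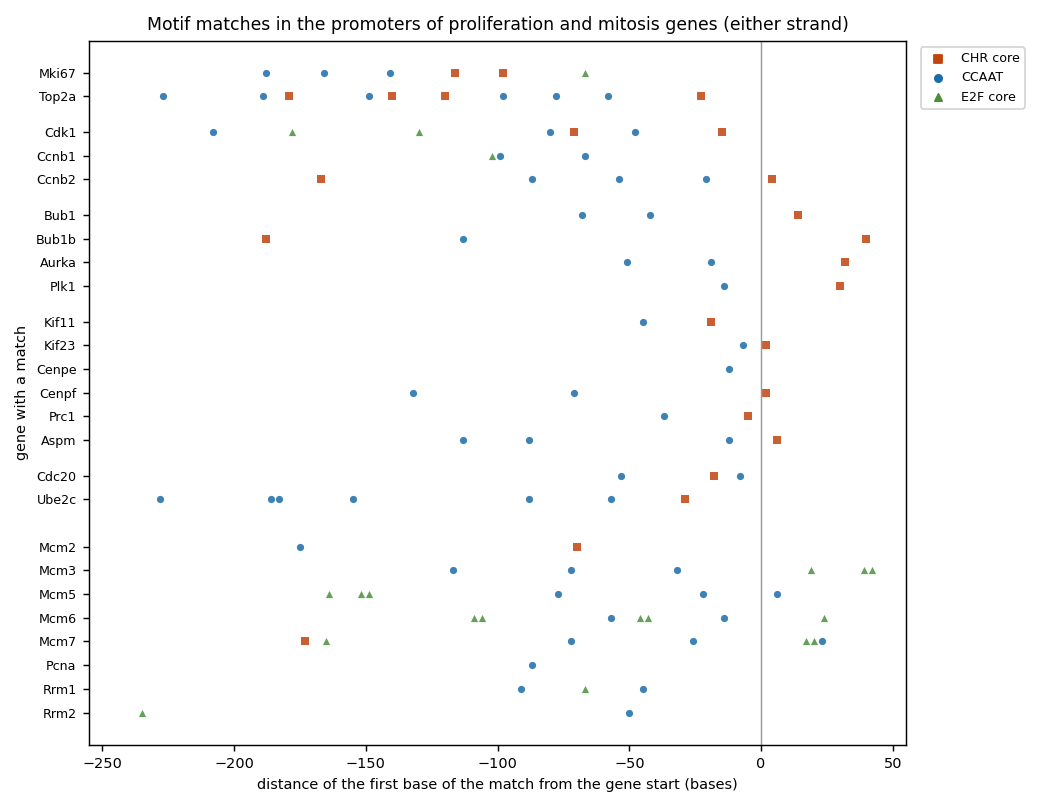
Positions of motif matches in the 25 promoters of proliferation and mitosis genes that held any, 1 row per gene, as distance in bases of the first base of the match from the gene start (0, grey line). Squares are CHR cores, circles CCAAT and triangles E2F cores; CHR cores lie in 17 rows and E2F cores in 9, of which 6 are replication genes.

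Counts per library ran from 21324156 to 37901110 reads assigned to genes. Levels are given as CPM, read counts scaled by the depth of the library, on 1 scale over all 29 libraries set by the trimmed mean of M-values (TMM), and levels of different genes are compared only per kilobase (kb) of main transcript. All 67 pairs of libraries within a group differed by more than counting noise, so none was counted as a repeat of another. The labelled cell types were checked with marker lists: 12 microglia markers summed to 15614 to 16272 CPM in the sc-control microglia, to 137 to 175 CPM in the co-culture and to 534 to 709.6 CPM in cortex, and in the co-culture the homeostatic markers P2ry12 and Tmem119 stayed under a mean of 1 CPM. The 10 neuron markers summed to 7982 to 8319 CPM in the co-culture and 151 to 166 CPM in the microglia, and 10 astrocyte markers to 336 to 391 CPM in the microglia, with no marker of either list at 0. Of the 9 neural progenitor markers, of cells that divide themselves, 8 were lower in the sc-control microglia than in the co-culture and 1, Vim, was higher (mean 1285 against 296 CPM); Vim, an intermediate filament gene that many other cells also express, was looked at alone after the values were seen. Without Vim the other 8 summed to 1139 to 1210 CPM in the sc-control co-culture, 183 to 218 in the microglia and 97.4 to 115 in cortex. In bulk RNA a lower share of dividing cells and less of these mRNAs in each dividing cell cannot be told apart.

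The level of the proliferation genes without miR-99b inhibition was compared between the 3 experiments in their sc-control libraries. All 35 genes were higher in microglia than in adult cortex and than in the co-culture, and all 35 were higher in the co-culture than in cortex, 33 of them past the fold limit given next. Summed over the 35 genes, sc-control microglia held 3665 to 3939 CPM, the co-culture 551 to 598 CPM and cortex 130 to 139 CPM. Calls at baseline needed an adjusted p under 0.05 and a log2 fold change beyond 1 in edgeR's quasi-likelihood test, fitted to 18274 genes in the 15 sc-control libraries. Microglia exceeded cortex with log2 fold changes from 3.19 (Mcm7) to 7.06 (Bub1), a 9.11-fold to 133-fold difference, with a median of 4.90 and a largest adjusted p of 7.13e-21; the median over all genes was -0.15, and 26.4% of all genes were called higher in that comparison. The co-culture exceeded cortex by 0.68 (Pcna) to 3.80 (Aspm), with a median of 2.07, and 33 of 35 genes were called where 14.9% of all genes were called higher. Pcna (1.61-fold) and Bub1b (1.86-fold) were the 2 genes below the fold limit, and the value of Pcna is uncertain by reads of a copy, given below. Microglia exceeded the co-culture by 1.69 (Mcm7) to 3.84 (Ccnb2), with a median of 2.76, and all 35 genes were called where 24.3% of all genes were called higher. In each of these comparisons no library of the lower group reached any library of the higher group for any of the 35 genes, as was so for 42.3% of all genes in microglia against cortex, 38.5% in co-culture against cortex and 38.4% in microglia against co-culture. Strain, age, tissue, culture and sequencing differ together between cortex and both cultures and cannot be told apart. Microglia and co-culture share the CD1 strain, but their age, cells, culture and sequencing differ together and cannot be told apart either.

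**Figure D2:**
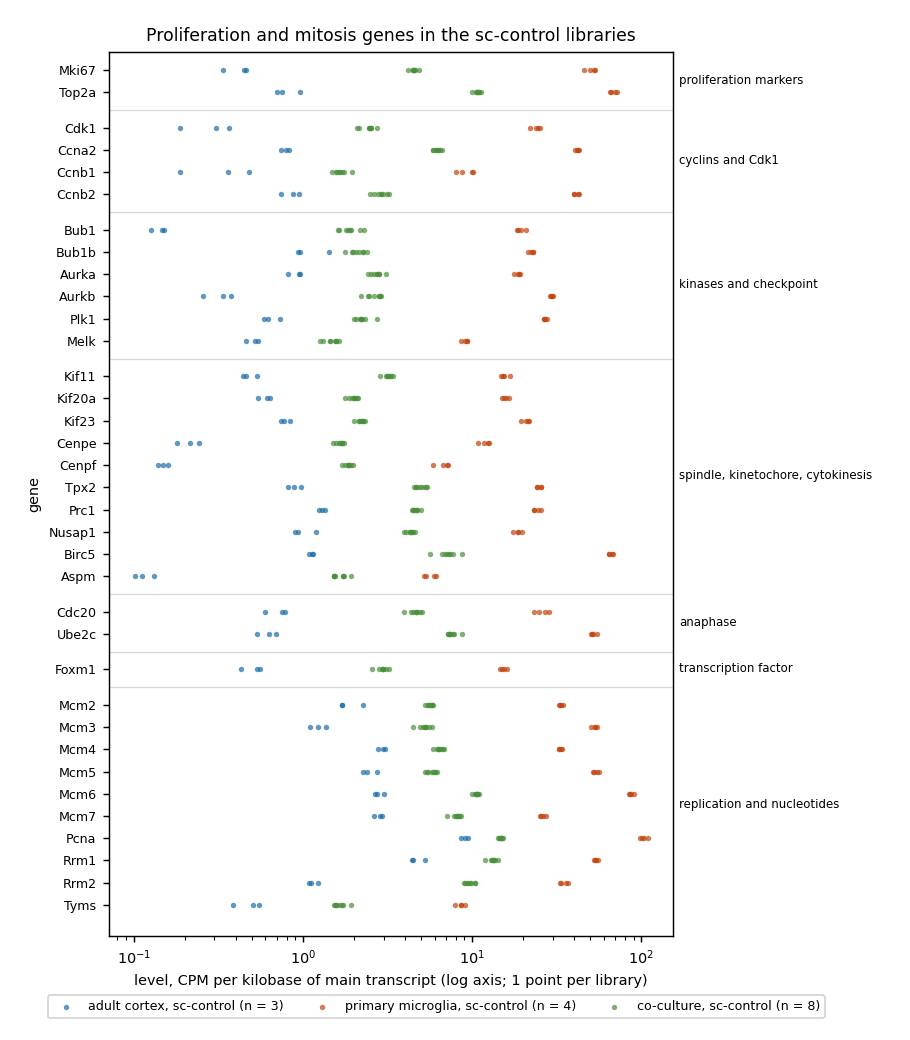
Level of each of the 35 genes in the sc-control libraries, in CPM per kb of main transcript on a log axis, 1 row per gene grouped by role; points are single libraries of cortex (3), co-culture (8) and microglia (4). For every gene the microglia points lie above all others and the co-culture points above those of cortex, with Pcna the highest row in each experiment.

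The proliferation markers showed gaps among the widest of the 35 genes. Mki67, which encodes the nuclear antigen Ki-67 that coats mitotic chromosomes and is absent from resting cells, was at 463, 534, 499 and 531 CPM in the 4 microglia libraries, against 4.64, 3.41 and 4.52 in the 3 of cortex, a 118-fold difference. In the 8 co-culture libraries its lowest, median and highest values were 42.2, 45.4 and 48.5 CPM. For Top2a, the topoisomerase that untangles replicated chromosomes, the microglia values were 346, 364, 339.6 and 375 CPM, those of cortex 3.93, 3.67 and 4.99, and the lowest, median and highest of the co-culture 51.9, 56.2 and 58.5. Per kb of transcript Top2a was above Mki67 in every experiment, with means of 68.2 against 50.4 CPM per kb in microglia and 0.804 against 0.416 in cortex.

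Genes of the mitotic cyclins and Cdk1 followed the same order of experiments. Cdk1, the kinase that triggers mitosis, was at 104, 107, 96.4 and 110.1 CPM in the 4 microglia libraries, against 0.817, 1.34 and 1.61 in the 3 of cortex. In the 8 co-culture libraries its lowest, median and highest values were 9.08, 10.8 and 11.98. The 3 experiments did not overlap for it. Ccnb1, its cyclin B1 partner, was at 21.6, 24.8, 20.1 and 25.2 CPM in the 4 microglia libraries, against 0.896, 0.467 and 1.20 in the 3 of cortex. The lowest, median and highest of the 8 co-culture libraries were 3.70, 4.10 and 4.84. The 3 cortex libraries spread more for Ccnb1 than for any other of the 35 genes, with a coefficient of variation of 43.04%. Per kb, Ccna2 (cyclin A2, of S phase and early mitosis) was the highest of these 4 genes in microglia and the co-culture, at 41.9 and 6.21 CPM per kb, and Ccnb2 (cyclin B2) in cortex at 0.852. The lowest were Ccnb1 in both cultures, at 9.21 and 1.67, and Cdk1 in cortex at 0.286. The values of Ccnb2 in cortex and in the co-culture, and with them its differences from microglia, are uncertain, because reads of its transcribed copy Ccnb2-ps could come from either. In the sc-control libraries the copy was at 3.29 to 4.07 CPM in cortex, 4.68 to 6.02 in the co-culture, where Ccnb2 itself had a mean of 4.41, and 1.69 to 2.17 in microglia.

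Among the mitotic kinases, Bub1 had the largest difference of all 35 genes between microglia and cortex, 133-fold, and its partner in the checkpoint, Bub1b, one of the smaller ones, 19.7-fold. Per kb, Bub1 and Bub1b stood at 19.4 and 22.3 CPM per kb in microglia but at 0.142 and 1.11 in cortex, where Bub1b was the highest and Bub1 the lowest of the 6 kinases. Plk1, the kinase of spindle assembly and mitotic exit, was at 58.4, 59.7, 58.2 and 61.1 CPM in the 4 microglia libraries, against 1.37, 1.30 and 1.61 in the 3 of cortex. Its co-culture libraries had 4.40, 4.84 and 6.03 as their lowest, median and highest values. Aurkb, the kinase that corrects attachments at centromeres, was the highest kinase per kb in microglia (29.4), and Aurka, the spindle pole kinase, in the co-culture (2.73), whereas Melk, the maternal embryonic leucine zipper kinase, was lowest in both, at 9.06 and 1.47 CPM per kb.

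Spindle, kinetochore and cytokinesis genes ranged from 18.2-fold (Nusap1, a microtubule bundling protein) to 57.9-fold (Birc5) in microglia against cortex. Birc5, which encodes survivin of the chromosomal passenger complex, was at 60.9, 63.4, 61.1 and 64.9 CPM in the 4 microglia libraries, against 1.03, 1.07 and 1.09 in the 3 of cortex. In the 8 co-culture libraries its lowest, median and highest values were 5.31, 6.84 and 8.29. It was the highest of these 10 genes per kb in both cultures, at 66.0 and 7.19 CPM per kb, while in cortex the highest was Prc1, the bundler of the central spindle, at 1.30. Aspm was lowest in microglia and in cortex, at 5.64 and 0.115, and the mitotic kinesin gene Cenpe was lowest in the co-culture at 1.65. Aspm and Cenpf, a kinetochore protein gene, had the smallest gaps of these 10 between microglia and co-culture, 3.42-fold and 3.64-fold, and the largest between co-culture and cortex, 13.9-fold and 12.2-fold.

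The anaphase gene Cdc20, the activator of the anaphase-promoting complex, was at 51.0, 41.6, 44.7 and 48.1 CPM in the 4 microglia libraries, against 1.34, 1.40 and 1.06 in the 3 of cortex. The lowest, median and highest of the 8 co-culture libraries were 7.12, 8.33 and 9.05. Ube2c, the ubiquitin-conjugating enzyme of the same complex, was above Cdc20 per kb in both cultures, at 52.1 against 25.9 CPM per kb in microglia, and below it in cortex, at 0.618 against 0.708. Foxm1, the transcription factor of the mitotic genes, was at 70.1, 74.5, 68.2 and 71.8 CPM in the 4 microglia libraries, against 2.503, 2.60 and 1.99 in the 3 of cortex. Its co-culture libraries had 11.9, 13.8 and 14.9 as their lowest, median and highest values. Foxm1 was 29.7-fold higher in microglia than in cortex and 5.69-fold higher in the co-culture than in cortex.

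Replication genes differed between microglia and cortex by 9.11-fold (Mcm7) to 42.6-fold (Mcm3). Mcm2, a subunit of the helicase, was at 110.1, 111, 113 and 116 CPM in the 4 microglia libraries, against 5.72, 7.65 and 5.75 in the 3 of cortex. In the 8 co-culture libraries its lowest, median and highest values were 17.7, 19.1 and 19.9. Its libraries fell into 3 separate ranges, with the co-culture in the middle. For Pcna, the sliding clamp, the values were 157, 154, 149 and 166 CPM in the 4 microglia libraries, against 13.8, 14.3 and 13.0 in the 3 of cortex. The lowest, median and highest of the 8 co-culture libraries were 21.7, 22.5 and 23.3. Pcna was the highest of the 35 genes per kb in every experiment, at 103 CPM per kb in microglia, 14.8 in the co-culture and 9.04 in cortex, and Tyms the lowest of the 10 replication genes, at 8.57, 1.65 and 0.482. The reductase subunits parted: in cortex Rrm1 was at 4.73 CPM per kb and Rrm2 at 1.14, while in the co-culture they were at 13.2 and 9.63. Pcna is uncertain by the reads of a processed copy, Pcna-ps2. In the sc-control libraries the copy was counted at 42.6 to 48.9 CPM in microglia, 6.48 to 7.57 in the co-culture and 0.08 to 0.30 in cortex. The place of Pcna below the fold limit in co-culture against cortex is therefore uncertain too.

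The makeup of the 35-gene sum differed between experiments. Replication genes made up 62.8% to 67.6% of the summed level per kb in the 3 sc-control cortex libraries (65.4% ± 2.38 SD), 46.5% to 48.0% in the 8 of the co-culture (47.3% ± 0.49) and 41.99% to 42.6% in the 4 of microglia (42.3% ± 0.27), with no overlap between the experiments. The markers Mki67 and Top2a made up 2.71% ± 0.46 in cortex, 8.90% ± 0.21 in the co-culture and 10.3% ± 0.35 in microglia (means ± SD). Above 1 CPM per kb were 13 of the 35 genes in sc-control cortex and all 35 in both cultures. Ranked among the genes tested in each experiment by level per kb, the median of the 35 genes lay at percentile 20.0 in cortex, 42.2 in the co-culture and 79.1 in microglia. Cortex values rest on few reads: 12 of the 35 genes had a sc-control library with fewer than 50 counts, and the median coefficient of variation over the 35 genes was 10.0% in cortex, 5.78% in the co-culture and 4.03% in microglia.

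**Figure D3:**
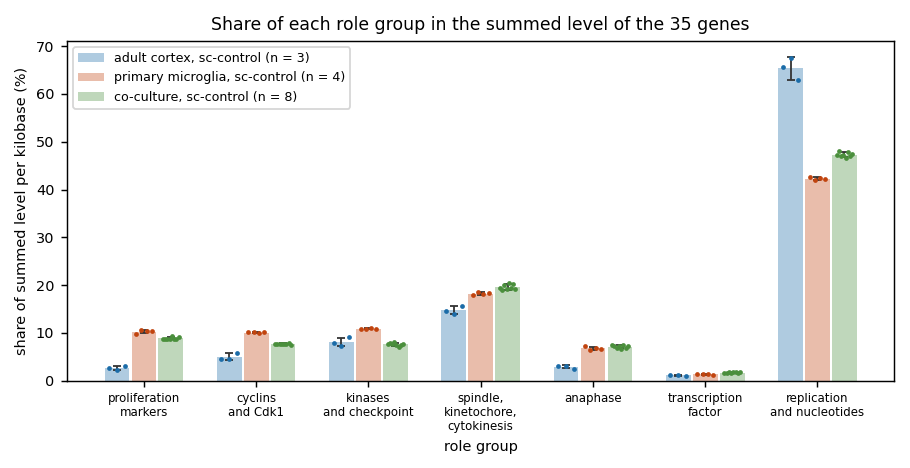
Share of each role in the summed level per kb of the 35 genes, in percent, in the sc-control libraries of each experiment. Bars are means over cortex (3 libraries), microglia (4) and co-culture (8), with error bars of the SD, and points are single libraries. Replication genes take the largest share everywhere, about 65.4% in sc-control cortex and 42.3% in sc-control microglia.

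Beyond the 35 genes, 114 further cell cycle genes (G1 cyclins, kinases and E2F factors; inhibitors and pocket proteins; other replication genes; other mitosis genes) were followed at baseline. Microglia were called higher than cortex for 96 and lower for 4, beside 26.4% and 37.0% of all genes. The co-culture was called higher than cortex for 63 and lower for 8, beside 14.9% and 20.5%, and microglia higher than the co-culture for 95 and lower for 4, beside 24.3% and 35.2%. Of the 50 other mitosis genes, 44 were called higher and 1 lower in microglia than in cortex, with a median log2 fold change of 4.76. Among them Ncaph, a condensin subunit gene, was at 68.9 to 73.6 CPM in microglia and 1.00 to 1.57 in cortex.

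Whether miR-99b inhibition moved these genes was asked within each experiment, in a fit to its own libraries. In adult cortex 1 of the 35 genes was called, Aspm, which was higher with anti-miR-99b, at the call rule used there (adjusted p under 0.1 and log2 fold change beyond 0.2), by which 0.0864% of the 17364 genes tested were called. Aspm (GRCm38, chr1:139454772-139494091, plus strand) had levels of 2.73, 3.52 and 2.42 CPM among the 3 mice given anti-miR-99b and of 1.11, 1.00 and 1.31 among the 3 given sc-control, from 71, 105 and 78 reads against 42, 30 and 48. Every treated mouse was above every control mouse. The log2 fold change was 1.33 (SE 0.20, edgeR adjusted p = 0.0763), a 2.52-fold difference, and DESeq2, which called 0.536% of all genes, called the same gene and no other of the 35. The call rested on single mice: it was lost without anti-miR-99b mouse 1, anti-miR-99b mouse 2, sc-control mouse 2 or sc-control mouse 3 (adjusted p from 0.18 to 0.56), while the log2 fold change stayed between 1.16 and 1.45. Within sequencing lanes the difference was 1.56 (lane 6, 2 against 2 mice) and 0.89 (lane 7, 1 against 1).

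For the rest of the genes in cortex no difference passed the call rule. Bub1b was at 5.34, 6.93 and 5.03 CPM with anti-miR-99b and 3.45, 3.51 and 5.26 with sc-control, and the highest control mouse lay above the lowest treated one. Its log2 fold change was 0.50 (SE 0.20, adjusted p = 0.648), and it was 0.81 within lane 6 and -0.063 within lane 7. Rrm2 stood at 1.65, 1.77 and 2.17 CPM against 2.69, 2.44 and 2.40, without overlap, with a log2 fold change of -0.42 and an adjusted p of 0.648. Aspm and Bub1b were the 2 genes with an unadjusted p under 0.05 in the higher direction and Rrm2 the 1 in the lower, beside 5.17% and 2.47% of all genes. Groups did not overlap for 4 genes that were higher (Aspm, Melk, Ube2c, Mcm6) and 2 that were lower (Kif20a, Rrm2), beside 7.50% and 5.89% of all genes. In all, 23 of the 35 genes had a higher and 12 a lower mean effect, with a median log2 fold change of 0.059 against 0.0025 over all genes.

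The fixed examples of each role showed no call in cortex. Mki67 was at 5.38, 4.35 and 4.57 CPM with anti-miR-99b (log2 fold change 0.18, adjusted p = 0.770) and Top2a at 4.11, 3.21 and 3.95 (-0.16, 0.803), so the marker pair pointed in opposite directions. Cdk1 was at 1.000, 1.27 and 1.18 CPM (-0.11, 0.924), and Ccnb1 at 1.04, 0.871 and 0.808 (0.051, 0.976). Plk1 was at 1.46, 1.74 and 1.68 (0.19, 0.789) and Birc5 at 1.08, 1.14 and 1.18 (0.10, 0.904). All of these overlapped their controls. Cdc20 was at 1.61, 1.74 and 1.09 (0.22, 0.813) and Foxm1 at 2.31, 2.01 and 2.14 (-0.13, 0.848). The replication genes Mcm2 and Pcna were at 8.04, 6.53 and 6.37 (0.14, 0.824) and 14.7, 14.0 and 13.0 (0.022, 0.960). These also overlapped their controls. Of the 12 microglia markers 7 had an unadjusted p under 0.05 in the higher direction in the same libraries, 0 were called by edgeR and 2 were called higher by DESeq2 (C1qb and C1qa), with a median log2 fold change of 0.32 and a sum of 701 to 762 CPM against 534 to 709.6, and their part in the Aspm result was not tested.

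**Figure D4:**
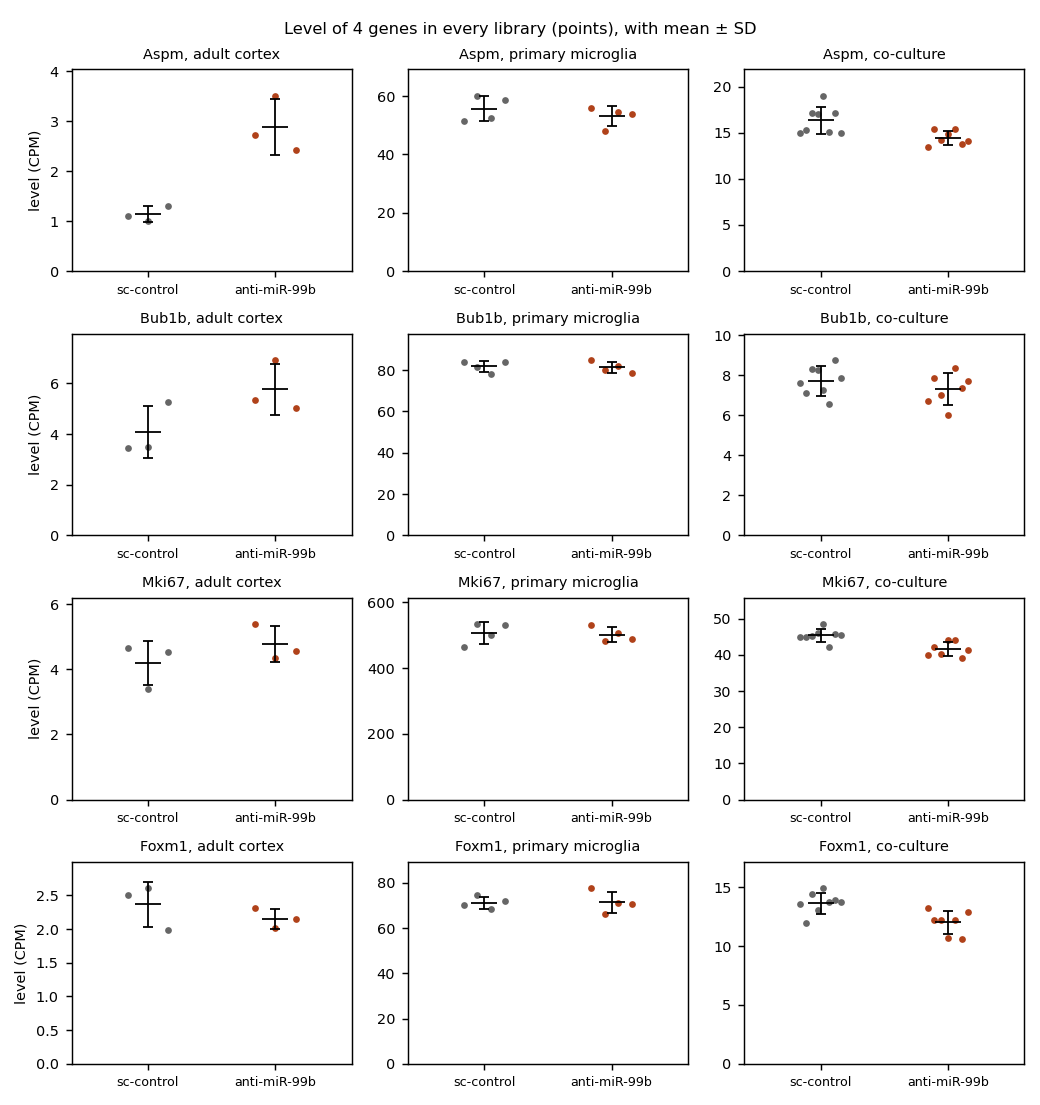
CPM of Aspm, Bub1b, Mki67 and Foxm1 in every library, anti-miR-99b against sc-control in each experiment, with each panel on its own linear axis; points are libraries and bars are means ± SD. The 3 treated cortex libraries of Aspm (2.42 to 3.52 CPM) lie above the 3 controls (1.00 to 1.31 CPM), and all other panels overlap.

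In microglia cultures, where these genes were most abundant and the libraries closest, no difference between anti-miR-99b and sc-control passed the test. None of the 35 genes was called by edgeR at an adjusted p under 0.1 and a log2 fold change beyond 0.1, where 0.488% of 14953 genes were; DESeq2 also called 0, with 0.254% of all genes called, and 0 of the 35 had an unadjusted p under 0.05, where 6.45% of all genes did. Log2 fold changes ran from -0.085 (Aspm) to 0.054 (Mcm7), with 18 genes higher and 17 lower and a median of 0.0004 against 0.0025 over all genes. Standard errors of the 35 genes lay between 0.028 and 0.063. The smallest adjusted p was 0.77 (Birc5). No gene separated the arms without overlap. Of the 10 replication genes 9 were higher, by at most 0.054, and of the 10 spindle genes 8 were lower, by at most 0.085.

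By gene, Mki67 was at 531, 481, 507 and 487 CPM in the 4 anti-miR-99b libraries and Top2a at 369.9, 348, 356 and 346. Cdk1 was at 108, 104, 106 and 106 and Ccnb1 at 24.02, 25.6, 23.99 and 21.8. Plk1 was at 61.1, 55.9, 63.0 and 62.0 and Birc5 at 61.8, 60.3, 61.8 and 56.6. Each of these ranges overlapped that of the sc-control libraries given above. Cdc20 was at 46.5, 45.3, 45.8 and 46.1 and Foxm1 at 77.5, 66.2, 71.0 and 70.4. Mcm2 was at 115, 113, 119 and 111 and Pcna at 165, 158, 163 and 152, again overlapping the controls.

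In the co-culture 33 of the 35 genes had a lower mean with anti-miR-99b and 2 a higher one (Aurka and Pcna), by small amounts: log2 fold changes ran from -0.19 (Bub1) to 0.038 (Aurka), with a median of -0.075 against 0.0025 over all 16193 genes. None was called by edgeR at an adjusted p under 0.05 and a log2 fold change beyond 0.1, where 1.40% of all genes were called. DESeq2 called 2 lower, Mki67 (adjusted p = 0.0191) and Foxm1 (adjusted p = 0.0413), where it called 1.77% of all genes. Without adjustment, 12 genes had a p under 0.05 in the lower direction and 0 in the higher, beside 6.81% and 6.40% of all genes. These 12 were Mki67, Ccnb1, Bub1, Aurkb, Melk, Kif11, Kif20a, Cenpf, Aspm, Ube2c, Foxm1 and Rrm2, of which Rrm2 was the 1 replication gene. By role the median log2 fold change was -0.12 for mitotic kinases, -0.11 for spindle genes and -0.041 for replication genes. All 35 values come from the same libraries, so their shared direction is not 35 separate results.

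Mki67 had the smallest p. Its lowest, median and highest CPM values were 39.1, 41.4 and 44.2 over the 7 anti-miR-99b libraries against 42.2, 45.4 and 48.5 in the 8 sc-control libraries, so that the medians lay apart and the ranges overlapped. The log2 fold change was -0.12 (SE 0.032, edgeR adjusted p = 0.0599). Within lanes 4, 5, 6 and 7 the difference was -0.13, -0.20, 0.063 and -0.14, of which the value of lane 6 rests on 1 library per arm. Foxm1 was at 10.6, 12.3 and 13.2 CPM against 11.9, 13.8 and 14.9 (lowest, median and highest), with a log2 fold change of -0.18 (SE 0.051, adjusted p = 0.0889). Its treated median was lower and its ranges overlapped. For Aspm the corresponding values were 13.4, 14.2 and 15.4 against 15.0, 16.2 and 19.0, with -0.17 (SE 0.051, adjusted p = 0.101), the opposite sign to cortex.

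The ranges of the remaining examples also overlapped their controls, each given by its lowest, median and highest CPM with anti-miR-99b. Top2a was at 50.2, 53.6 and 59.2 (log2 fold change -0.051), Cdk1 at 9.62, 10.1 and 11.5 (-0.039) and Ccnb1 at 2.84, 3.79 and 4.12 (-0.17, adjusted p = 0.337). Plk1 was at 4.04, 4.61 and 5.83 (-0.014), Birc5 at 5.54, 6.07 and 7.30 (-0.14) and Cdc20 at 6.61, 8.04 and 8.75 (-0.065). Mcm2 was at 17.1, 18.5 and 21.03 (-0.0093) and Pcna at 21.8, 22.5 and 25 (0.033). In the same libraries 7 of the 12 microglia markers were called higher, among them C1qc (32.1 to 37.5 against 24.1 to 31.2 CPM) and Trem2 (4.56 to 6.23 against 2.35 to 4.81 CPM); the summed level of the 12 was 174 to 197 CPM against 137 to 175. Neural progenitor markers summed to 1427 to 1558 CPM with anti-miR-99b against 1436 to 1513, with 0 of 9 called by edgeR or DESeq2 and 0 with an unadjusted p under 0.05. The 6 oligodendrocyte precursor markers summed to 399 to 475 CPM with anti-miR-99b against 443 to 479 (means 442 and 458), with overlapping ranges. The part of the cell makeup in the lower values of the proliferation genes was not tested.

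**Figure D5:**
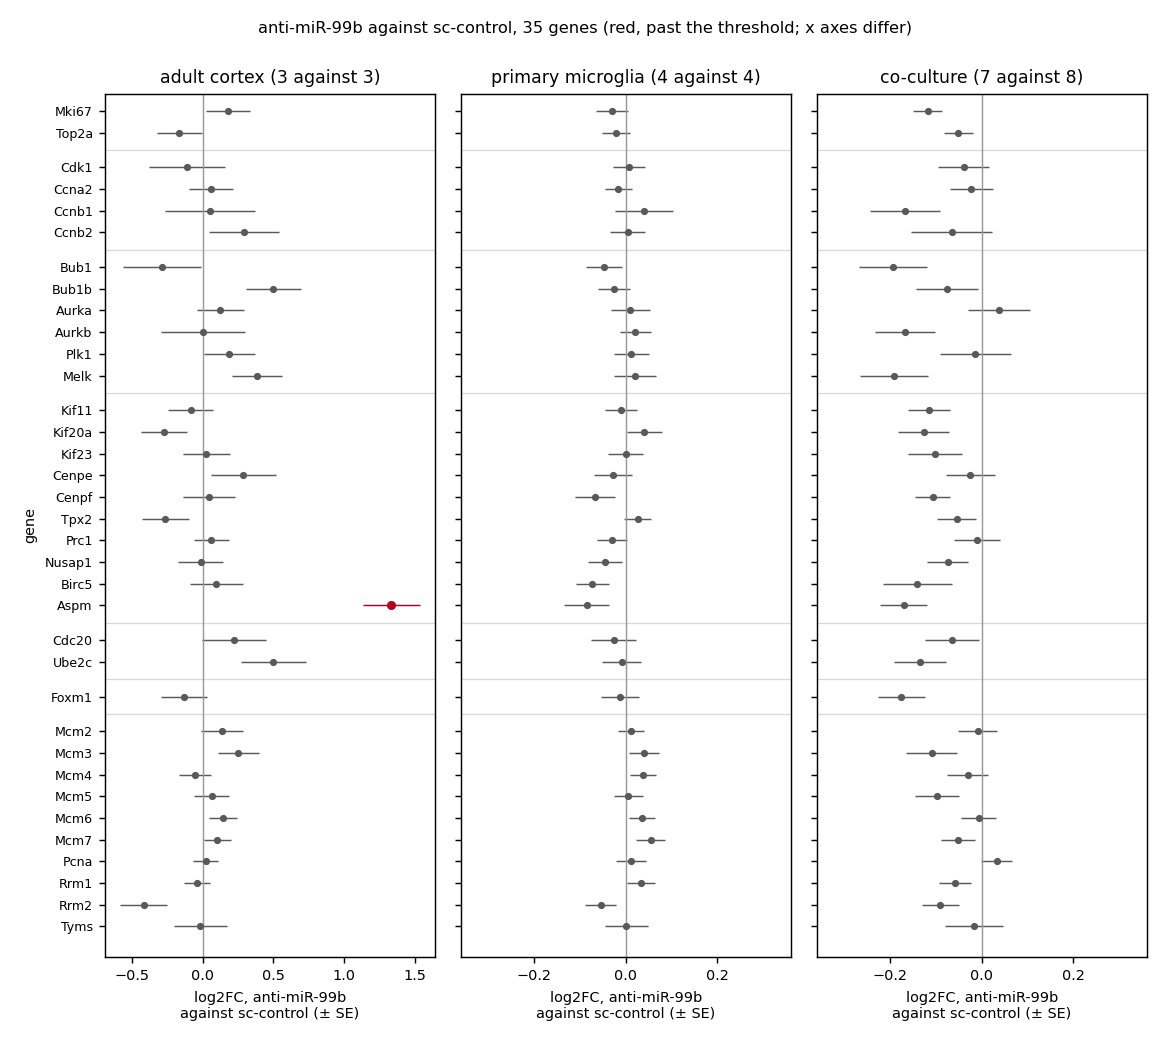
Log2 fold change of each of the 35 genes, anti-miR-99b against sc-control, in cortex, microglia and co-culture, with error bars of 1 standard error from edgeR, 1 row per gene, red for a gene past the threshold and a wider x axis for cortex. Cortex effects scatter widely around 0 with Aspm at 1.33, microglia effects lie between -0.085 and 0.054, and co-culture effects lie mostly to the left of 0.

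The effects of the 3 experiments were then set against each other by the test of the difference itself, in 1 fit to all 29 libraries (adjusted p under 0.05). For microglia minus co-culture 0 of the 35 genes were called by edgeR or DESeq2, where 0.0844% and 0.206% of all genes were called, and 6 had an unadjusted p under 0.05, where 5.49% of all genes did. For microglia minus cortex Aspm was called, with a difference of -1.40 (adjusted p = 4.45e-05), where 0.469% of all genes were. For co-culture minus cortex Aspm was again called, with -1.50 (adjusted p = 9.35e-06), where 0.791% of all genes were. Both differences use the same cortex libraries, and both carry the cortex value of Aspm. DESeq2 also called Bub1b in both (edgeR adjusted p = 0.127 and 0.0672), where it called 1.47% and 2.67% of all genes. This fit estimates 1 spread for all 29 libraries, while pairs of libraries within a group differed more in cortex (chi-square of 7.51 to 28.8 per degree of freedom) than in microglia (1.64 to 5.02) and mostly more than in the co-culture (median 2.67, highest 13.7). With a spread for each experiment, in limma on voom weights, an alternative chosen after seeing the data, neither difference of Aspm passed: it was -1.38 (SE 0.35, adjusted p = 0.139) for microglia minus cortex and -1.48 (SE 0.35, adjusted p = 0.0799) for co-culture minus cortex.

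The 114 other cell cycle genes gave 1 edgeR call in the 3 treatment comparisons. Cdkn1a, which encodes the CDK inhibitor p21, rose in the co-culture: its libraries lay between 77.2 and 86.4 CPM with anti-miR-99b and between 65.5 and 78.1 CPM with sc-control (log2 fold change 0.17, adjusted p = 0.011), with ranges that overlapped slightly, where 1.40% of all genes were called. In cortex 0 of the 111 tested and in microglia 0 of 114 were called by edgeR or DESeq2. Without adjustment, 7 were higher and 2 lower in cortex at a p under 0.05, beside 5.17% and 2.47% of all genes, and 4 differed in microglia, beside 6.45%. Of the 50 other mitosis genes in the co-culture, 41 had a lower and 9 a higher mean, with a median log2 fold change of -0.067, 6 at an unadjusted p under 0.05 and lower, beside 6.81% of all genes, and 0 called. In the tests of differences against cortex, edgeR called Mcm10, a replication initiation gene, for microglia (-0.76, adjusted p = 0.0442) and for co-culture (-0.88, adjusted p = 0.0140), and Tk1, the thymidine kinase gene, for co-culture (-0.75, adjusted p = 0.0315). With a spread for each experiment these did not pass (adjusted p = 0.433, 0.344 and 0.421).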

How the data were processed

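Poly(A) RNA of 29 mouse samples was made into TruSeq RNA v2 libraries and sequenced as single reads by Illumina sequencing. The authors deposited raw counts per Ensembl gene. Per the submitters' processing notes these came from bcl2fastq 2.20.2, FastQC 0.11.5, STAR 2.5.2b and featureCounts 1.5.1 on mm10; the strand setting and annotation release are not given in the sources used here, so reads of overlapping genes cannot be told apart. Exons of 10 of the 35 genes share bases with another annotated gene, and those of Aspm, Bub1b and Mki67 do not. The 10 are Top2a, Ccna2, Plk1, Kif20a, Prc1, Nusap1, Cdc20, Ube2c, Foxm1 (144 bases with Tex52) and Mcm7 (321 bases with Ap4m1). No column was left unmapped to a sample.

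Counts were tested with edgeR 4.0.16 in R 4.3.3 (filterByExpr, TMM, quasi-likelihood test, Benjamini-Hochberg over all genes tested, two-sided), separately per experiment for the treatment, over the 15 sc-control libraries for the baseline, and over all 29 for differences of effects. All 35 genes passed the filter in each. The pipeline was tested on simulated counts. The 35 genes, the other lists, the call thresholds and the tests were chosen with earlier results of these data known. Values are given for a fixed panel (Mki67, Top2a, Cdk1, Ccnb1, Plk1, Birc5, Cdc20, Foxm1, Mcm2, Pcna) and for called genes. For cortex and microglia they are those of single libraries, and for the co-culture the lowest, median and highest. At baseline the highest and lowest gene of each role per kb are named. Of the called genes in the other lists only some are named, taken from the first 5 by p. Bub1b, Rrm2 and co-culture Aspm were singled out after their values were seen. Fixed alternatives were DESeq2 1.42.0, other scalings and filters, a RUVs factor, lane or replicate number as a block, and other thresholds. Cortex and microglia libraries were also left out in turn, but those of the co-culture were not. Added after seeing the data, for differences of effects, were limma 3.58.1 on voom weights with a spread per experiment, which scales all genes alike, and leaving out each cortex mouse. The level of miR-99b-5p is not analysed here.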

Additional observations from a re-analysis of the deposited data

Results flagged for a closer look

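The difference between the effects of anti-miR-99b on Aspm in microglia and in cortex was -1.40 on the log2 scale (edgeR interaction test, adjusted p = 4.45e-05), and between co-culture and cortex it was -1.50 (adjusted p = 9.35e-06); both were marked because the test of the difference passed, and both use the same cortex libraries. With a spread for each experiment neither passed (limma, adjusted p = 0.139 and 0.0799).

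Single libraries far from the rest of their group were searched for for the 10 panel genes, Aspm and the sum of the 35 genes in the 4 groups of 4 to 10 libraries, 48 checks in all, of which chance marks about 1 in 20. In 2 of them a library was marked, and neither mark passed after adjustment. Ccnb1 was at 2.84 CPM in anti-miR-99b co-culture replicate 2, where the other 6 libraries of the group were at 3.63 to 4.12 CPM. Plk1 was at 6.03 CPM in sc-control co-culture replicate 5, where the other 7 were at 4.40 to 5.15 CPM. The cause of these values was not tested.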

How the results depend on the processing

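The baseline counts (35, 33 and 35 genes) stayed within 1.5 times under every alternative run. Scaling by library size alone moved the median of all genes in microglia against cortex from -0.15 to -0.35 and in microglia against co-culture from -0.17 to -0.37, and the median of the 35 genes from 4.90 to 4.71 and from 2.76 to 2.56. For treatment, the 1 gene called in cortex became 0 at an adjusted p under 0.05 with no fold limit, and 0 to 1 when each mouse was left out. In microglia the count was 0 to 1 when each library was left out (Cenpf lower without sc-control replicate 2). In the co-culture the 0 genes called by edgeR became 2 by DESeq2 (Mki67, Foxm1), 1 with at least 10 counts in every library (Mki67) and 3 with a RUVs factor (Mki67, Foxm1, Aspm). Over all alternatives run, the log2 fold change of Mki67 in the co-culture stayed between -0.174 and -0.114 (adjusted p 0.00306 to 0.144). That of Foxm1 there stayed between -0.177 and -0.102 (adjusted p 0.0273 to 0.754). Leaving out each library in turn was not run in the co-culture, so these 2 ranges do not cover it. The log2 fold change of Aspm in cortex, with each mouse also left out, stayed between 1.16 and 1.5 (adjusted p 9.82e-08 to 0.564). Of the other cell cycle genes, cortex gave 3 calls without a filter on low counts and 2 with RUVs in place of 0, microglia 0 to 2 when each library was left out, and the co-culture 2 by DESeq2 and 4 with RUVs in place of 1. Differences of effects against cortex gave 2 genes each by DESeq2 (Aspm, Bub1b), and co-culture minus cortex also 2 without the filter. In alternatives chosen after seeing the data, both gave 0 with limma and a spread per experiment, and 1 to 3 (microglia) and 1 to 4 (co-culture) when each cortex mouse was left out, Aspm in each; the highest counts were without anti-miR-99b mouse 3 (adding Bub1b and Rrm2, and Bub1b, Mcm3 and Melk), and without sc-control mouse 4 both were 2 (adding Bub1b). The cause of these shifts was not tested. A share of all genes called is given above for the main fits and DESeq2 only. Counts under the other settings have no such share beside them and are not a result about the 35 genes. In cortex, genes at about 1 CPM in the sc-control libraries, such as Ccnb1, Cdk1, Birc5 and also Aspm (mean 1.14 CPM), are limited by depth.

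Replicate numbers in the library names were not used to pair the samples in the main fits. Deviations of same-numbered libraries from group means correlated by -0.200 to 0.022 in cortex (2 pairs) and -0.025 to -0.018 in microglia (2 pairs). In the co-culture they correlated by -0.003 to 0.0475 (4 pairs). Those of differently numbered libraries correlated by -0.270 to 0.303 in cortex, -0.078 to 0.067 in microglia and -0.194 to 0.235 in the co-culture. With so few pairs, this check cannot exclude pairing. A fit with the number as a replicate block used libraries numbered in both arms only. It called 2 genes in cortex (Aspm, Bub1b) and 1 in the co-culture (Mki67). The other cell cycle genes gave 2 in cortex, 1 in microglia and 0 in the co-culture. These counts too have no share of all genes beside them. Uncalled effects that changed sign under this block were, on the log2 scale, 0.225 for Cdk1, -0.027 for Mcm2 and -0.0469 for Pcna in cortex, and -0.0149 for Plk1 and 0.0478 for Cdc20 in microglia. Pcna in cortex was also -0.00146 with RUVs. Leaving out each replicate in turn, effects near 0 changed sign within these ranges: in cortex Cdk1 -0.355 to 0.132, Ccnb1 -0.217 to 0.370 and Pcna -0.0147 to 0.0687, and in microglia Cdk1 -0.0324 to 0.0238, Ccnb1 -0.0252 to 0.0820, Plk1 -0.00687 to 0.0463, Cdc20 -0.0740 to 0.0261, Foxm1 -0.0583 to 0.0195, Mcm2 -9.16e-05 to 0.0192 and Pcna -0.0143 to 0.0301.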
